A study of Gossypium hirsutum with 3 samples.

Results

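Of the genes on a cotton (Gossypium hirsutum) microarray, 6 were described as beta-galactosidases in the study's additional file, which the study describes as a list of genes that differed between the samples compared. Other genes of the family may be on the array without being listed there. The 6 members are the contigs Contig5111, Contig17441, Contig8379 and Contig50 and the singletons TS_1-02-02_H03_LibSeq2_25Nov03_017.ab1 and HYP3_01-01-37R_A08_InvR_03May04_064.ab1, called below the TS singleton and the HYP3 singleton. A contig is an assembly of expressed sequence tags and a singleton is a tag that assembled with no other. The members were found by gene name, after a leading RC_ or a1_ was removed, and made up 6 of the 11143 genes and 22 of the 40372 probes of the array. Each of the 22 probes was printed once, as 22 of 42034 spots.

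Cotton fibers are single cells that grow out of the ovule epidermis, and the comparison asked which genes differ between fiber initials at 1 dpa (days post anthesis) and elongating fiber at 10 dpa. Both groups came from plants grown in the field. The labels call the RNA total RNA and give polyribosomal RNA isolation as the extraction. RNA of 1 dpa fiber was obtained by vortexing frozen whole ovules with glass beads and filtering the ovules off, whereas 10 dpa fiber was dissected from the ovule, so the stages also differ in how the cells were harvested. The methods name the cultivars DES119 and ST4793R without saying which was hybridized. On each of 3 arrays, numbered as replicates with no order implied, RNA of both stages was hybridized together, with swapped dyes on replicate 2. The methods state 3 biological replications, harvested on separate days, whereas the array files code only 2 distinct RNAs for 1 dpa fiber and 2 for 10 dpa fiber. Which of these holds could not be settled, so n = 3 counts arrays, p-values reflect how far the 3 arrays differed, and some of that difference may be technical. If the codes hold, replicate 1 shares an RNA with each other array, whereas the test treats the arrays as independent. Over all genes the log2 ratios of replicate 1 correlated at 0.57 with replicate 2 and at 0.60 with replicate 3. Replicates 2 and 3 correlated at 0.84.

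Beta-galactosidases of plants are glycoside hydrolases that remove terminal beta-linked galactose from the side chains of pectin, from arabinogalactan proteins and, for some members, from xyloglucan. Many are secreted into the cell wall. In tomato fruit one member of the family acts on pectic galactan during ripening and is also called a galactanase. Elongating fiber has an extensible primary wall in which such polymers are synthesized and trimmed.

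Of the 6 genes, 3 were more abundant in 10 dpa fiber, 1 was less abundant and 2 did not pass the test. The TS singleton rose 7.74-fold, Contig5111 rose 5.42-fold and Contig17441 rose 3.13-fold, while Contig50 fell 2.24-fold. Contig8379 and the HYP3 singleton had log2 ratios of 0.00 and -0.46. The test was limma on the log2 ratio of each array, with Benjamini-Hochberg adjustment over the 11143 genes and a threshold of 0.05. By this test 13.6% of the array's genes changed, 8.03% of them upwards in 10 dpa fiber and 5.61% downwards, each as a share of all genes. With median centring of the arrays in place of loess the share of the changed genes that were higher moved from 58.9% to 72.8%, and the same 3 members were higher and the same 1 lower. Without replicate 1 that share was 44.7%, and the HYP3 singleton was then lower as well. The additional file lists genes that the study chose partly on these arrays, so the counts over the members are not independent evidence of change or direction. In RNA of whole fiber samples, fewer cells of a type and less RNA per cell cannot be told apart.

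**Figure D1:**
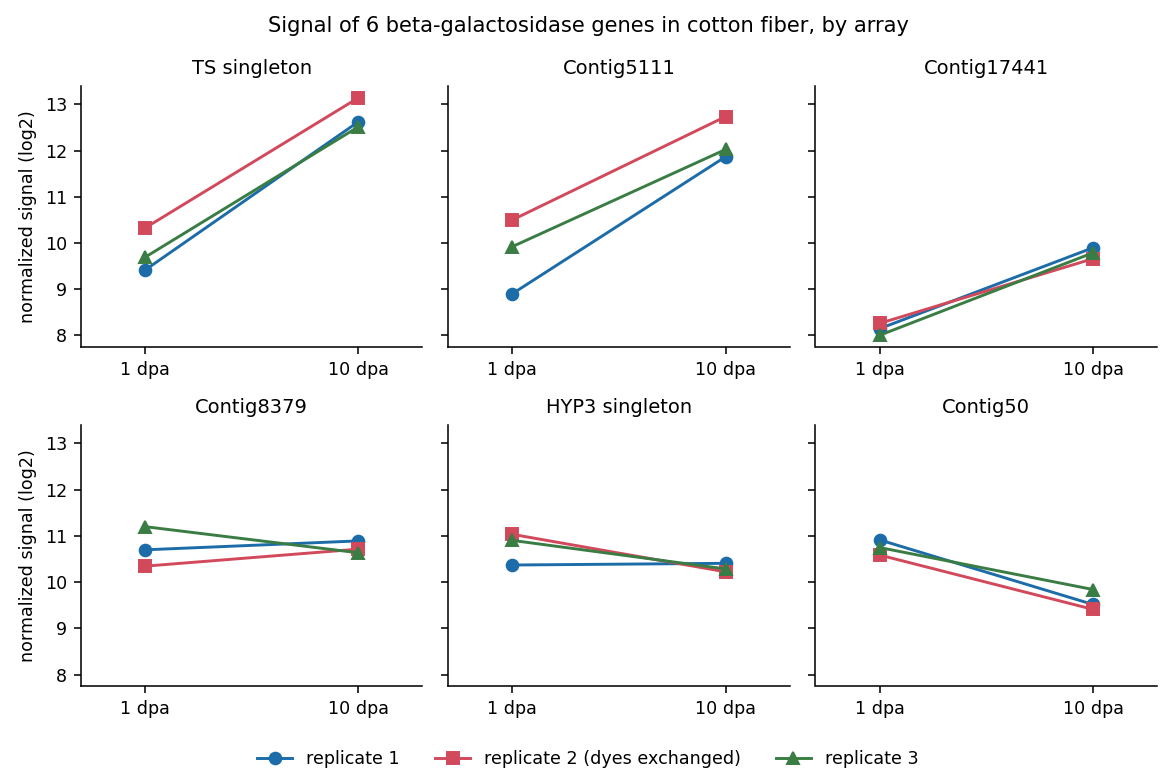
Normalized log2 signal of each gene (mean of its probes, vertical axis) in 1 dpa and 10 dpa fiber, with a line for each of the 3 arrays. The lines of the TS singleton, Contig5111 and Contig17441 rise on every array and those of Contig50 fall on every array, while the lines of Contig8379 and the HYP3 singleton run in different directions.

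The TS singleton was described as a beta-galactosidase/galactanase after its best match in tomato. Its normalized log2 signal, the mean of its 3 probes after dye normalization, was 9.41, 10.32 and 9.69 in 1 dpa fiber on replicates 1 to 3 and 12.63, 13.14 and 12.52 in 10 dpa fiber. The stages did not overlap, and 10 dpa fiber was the higher on every array. Over all genes the stages did not overlap for 12.1% with 10 dpa fiber above and for 10.7% with it below. The mean log2 ratio, given with its SD over the 3 arrays here and below, was 2.95 ± 0.22 (limma adjusted p = 0.000614), with ratios of 3.21, 2.82 and 2.83 on the arrays. Only 5 of the 11143 genes had a higher mean ratio.

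All 3 probes of the TS singleton rose when each probe was tested alone over the 40372 probes, of which 4.34% were higher and 2.96% lower. Their log2 ratios of 2.90, 2.95 and 3.00 lay within 0.10 of each other. The unprocessed intensity of probe 4 was 1006, 1467 and 629 in 1 dpa fiber of replicates 1 to 3 and 13767, 7708 and 5847 in 10 dpa fiber. The increase was thus plain in the scanner values before any correction, also on the array with exchanged dyes.

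Contig5111, whose best match was a beta-galactosidase of Arabidopsis thaliana, was the second of the genes that rose. Its normalized log2 signal was 8.90, 10.50 and 9.92 in 1 dpa fiber and 11.87, 12.74 and 12.03 in 10 dpa fiber on replicates 1 to 3. The stages did not overlap here either, but the 1 dpa signals were spread more widely (SD 0.81) than the 10 dpa signals (SD 0.46). The mean ratio was 2.44 ± 0.46 (limma adjusted p = 0.00131), from 2.97, 2.24 and 2.11 on the arrays, and it ranked 30 from the highest among all genes.

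The 4 probes of Contig5111 all rose, with log2 ratios from 2.17 to 2.79. They differed most on replicate 1, where probe 2 gave 3.71 and probe 4 gave 2.10. On replicates 2 and 3 probe 4 had the highest of the 4 ratios, at 2.57 and 2.52, while probe 1 had the lowest, at 1.84 and 1.49. The order of the probes therefore changed between replicate 1 and the other arrays, and every one of the 12 ratios was positive. Probe 1 was the dimmest in 1 dpa fiber on replicate 1, with an intensity of 276, or 1.48 times the 95th percentile of negative controls. Probe 2, with the highest ratio there, was near background as well, at 315 or 1.68 times. For 1 dpa fiber that percentile was 187 on replicate 1, against 75 and 92 on replicates 2 and 3.

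Contig17441, with a best match in chickpea (Cicer arietinum), had the lowest ratio of the 3 genes that rose and, of these 3, the signals closest to each other between arrays. Its normalized log2 signal was 8.15, 8.26 and 8.004 in 1 dpa fiber and 9.90, 9.66 and 9.79 in 10 dpa fiber. Within each stage the arrays differed little (SD 0.13 and 0.12), and the stages did not overlap. Its log2 ratio was 1.65 ± 0.21 (limma adjusted p = 0.00143), with 1.75, 1.40 and 1.78 on the arrays. All 4 of its probes rose, by log2 ratios from 1.41 to 1.83. Its probe 1 in 1 dpa fiber on replicate 1 was only 1.06 times the negative control percentile, the closest of the 132 spot values of the members to background, and all 132 were above it.

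**Figure D2:**
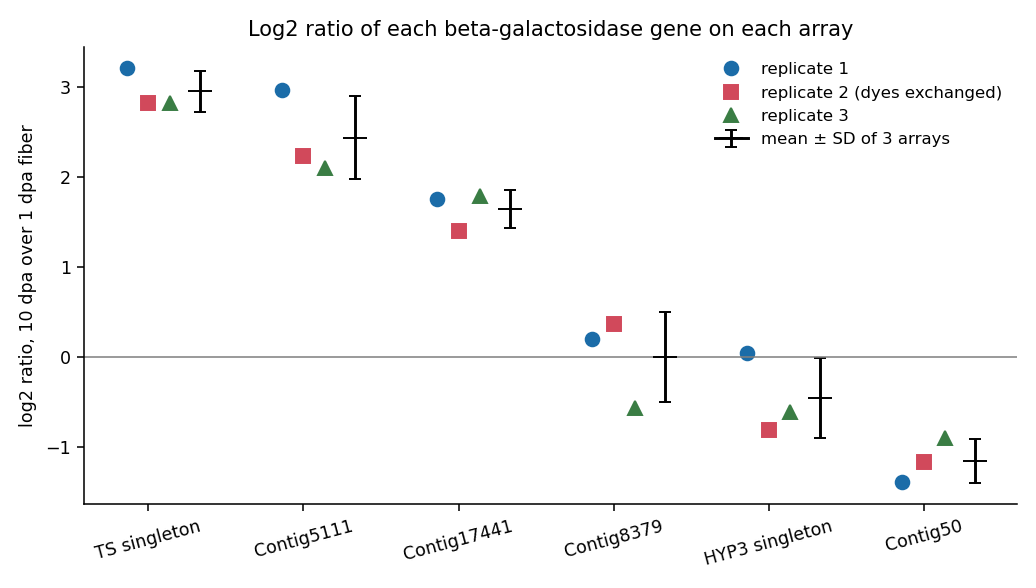
Log2 ratio of 10 dpa over 1 dpa fiber (vertical axis) for the 6 genes, with a point for each array and the mean ± SD of 3 arrays. The TS singleton, Contig5111 and Contig17441 lie above 1 on every array, Contig50 lies below 0 on every array, and the points of Contig8379 and the HYP3 singleton lie on both sides of 0.

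Among the genes that rose, the TS singleton had the higher ratio than Contig17441 on every array, by 1.04 to 1.46 on the log2 scale. It also exceeded Contig5111 on every array, but only by 0.24, 0.58 and 0.72 (mean 0.51 ± 0.25). Contig5111 exceeded Contig17441 by 0.32 to 1.22. These differences were not tested, and each gene was measured by its own probes.

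Contig50 was the member that fell, and its best match was a putative beta-galactosidase of Arabidopsis thaliana. Its normalized log2 signal was 10.91, 10.59 and 10.75 in 1 dpa fiber and 9.52, 9.41 and 9.84 in 10 dpa fiber. All 10 dpa signals were below all 1 dpa signals. The log2 ratio was -1.16 ± 0.25 (limma adjusted p = 0.00485), with -1.40, -1.18 and -0.91 on replicates 1 to 3. All 4 probes fell when tested alone, with ratios from -1.53 to -0.98, and none of the 12 ratios was positive. The brightest of them, probe 2, had intensities of 5473, 3116 and 2544 in 1 dpa fiber and 1962, 870 and 1553 in 10 dpa fiber. The distance between the TS singleton and Contig50 was 3.73 to 4.61 on the log2 scale within an array, and members described by the same enzyme name moved in opposite directions.

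Contig8379 carried a description that does not name a plant gene. Its best match was the beta-galactosidase of a cloning vector, and many vectors carry a fragment of the bacterial lacZ gene used for blue and white colony screening. Whether this contig represents a plant beta-galactosidase was not tested here, and it is called a member only by its description. Its normalized log2 signal was 10.70, 10.35 and 11.20 in 1 dpa fiber and 10.89, 10.71 and 10.63 in 10 dpa fiber, and the stages overlapped. Its ratios of 0.19, 0.37 and -0.57 on replicates 1 to 3 averaged 0.00 ± 0.50 (limma adjusted p = 0.998). The 95% confidence interval ran from -0.49 to 0.49. Its 4 probes had much the same mean ratio, from -0.13 to 0.15, and on replicate 3 all of them were negative. They were bright in both stages, with every spot at least 4.04 times the negative control percentile.

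The HYP3 singleton, a putative beta-galactosidase after its tomato match, was similar in the 2 stages on replicate 1 and lower in 10 dpa fiber on the other arrays. Its normalized log2 signal was 10.37, 11.03 and 10.90 in 1 dpa fiber and 10.41, 10.22 and 10.29 in 10 dpa fiber. The 10 dpa signals lay close together (SD 0.09) and the 1 dpa signals did not (SD 0.35), and the stages overlapped through replicate 1. The log2 ratio was 0.04, -0.81 and -0.62 on the arrays, with a mean of -0.46 ± 0.44 (limma adjusted p = 0.192) and a 95% confidence interval from -0.92 to -0.01 before adjustment for multiple tests. Without replicate 1 the ratio was -0.71 (limma adjusted p = 0.0151), on 2 arrays. Of its 3 probes none passed the test alone. On replicate 1 probe 2 gave 0.62, while probes 3 and 4 gave -0.25 and -0.26.

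**Figure D3:**
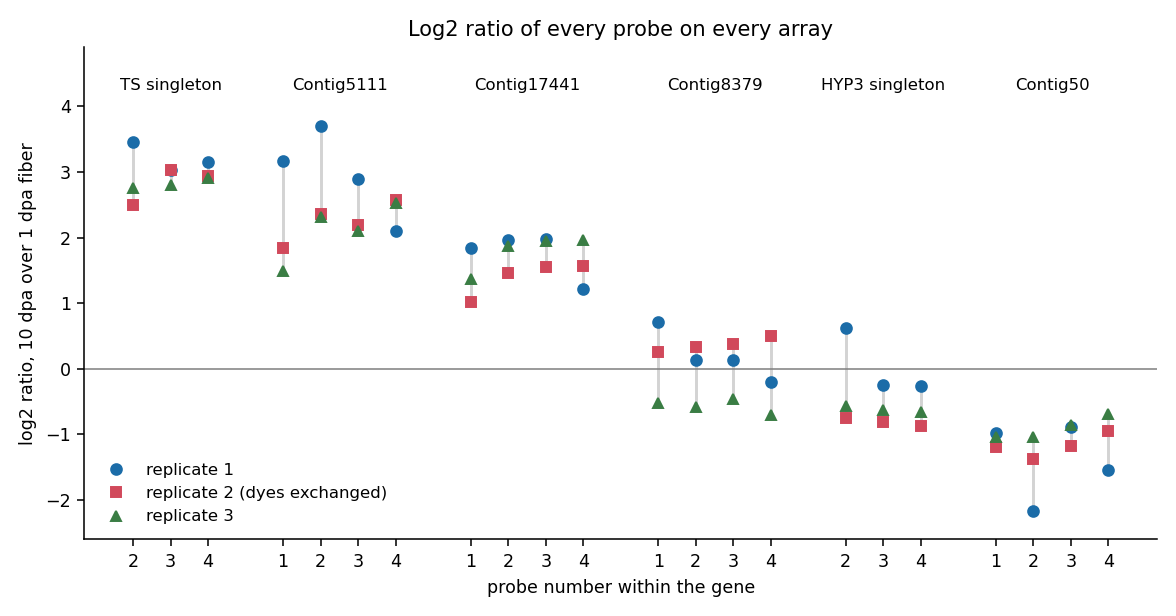
Log2 ratio of 10 dpa over 1 dpa fiber (vertical axis) for each of the 22 probes, grouped by gene, with a point for each array and a grey line over their range. Probes of a gene fall on the same side of 0 for the TS singleton, Contig5111, Contig17441 and Contig50. Probe 1 and probe 2 of Contig5111 and probe 2 of the HYP3 singleton are among the probes that stand higher on replicate 1 than on the other arrays.

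All 6 genes gave signal above background in both stages. Signal levels of different genes come from different probes and were not set against each other. The highest intensity of a member was 16261, against highest spot intensities of 65085 to 65148 on the arrays. Probe sequences were not used here, and whether a probe of one member also hybridizes with the transcript of another was not tested. Each gene had probes of only 1 of the name forms (Contig5111 and Contig50 with RC_, Contig17441 and Contig8379 with a1_, the singletons with neither), and what the forms mean is not given in the sources used here.

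Calls for all 4 changed genes held under 10 of 12 other ways of processing, with log2 ratios of 2.82 to 3.11 for the TS singleton, 2.17 to 2.60 for Contig5111, 1.55 to 1.77 for Contig17441 and -1.29 to -1.04 for Contig50. These 10 include the fits on 2 arrays and the fit with a dye term, whose smaller p-values are not added support. They also include a filter on dim probes that left the members' ratios unchanged. Scaling between arrays ended all 4 calls (limma adjusted p = 0.0620 for each), and so did an F-test without moderation of the variance, made gene by gene from the 3 ratios (adjusted p of 0.162 to 0.215 after Benjamini-Hochberg). This F-test is not that of the methods, which was fitted over all arrays of the study with probe and spot terms. Under both, 3 members were higher and 1 was lower at 2-fold and an unadjusted p of 0.05, a rule that 3.6% of all genes met as higher and 1.98% as lower with limma.

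**Figure D4:**
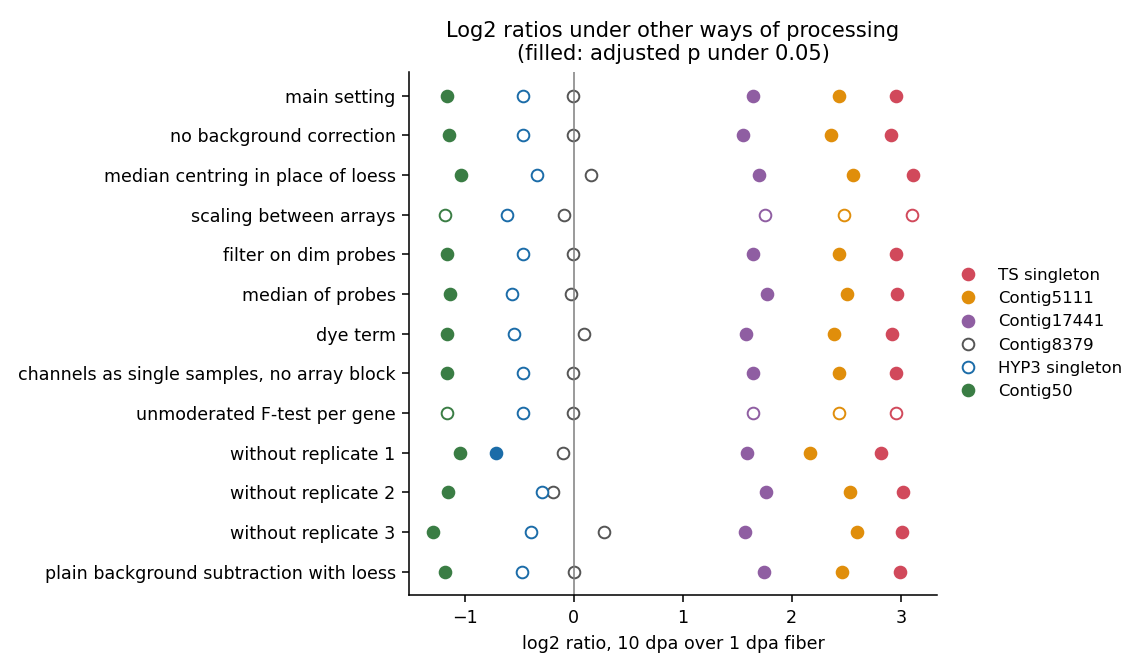
Log2 ratio of 10 dpa over 1 dpa fiber (horizontal axis) of the 6 genes in the setting reported and in 12 other settings (vertical axis), with filled points for an adjusted p under 0.05. The ratios of the 4 changed genes moved little, and their points are open only under scaling and under the F-test.

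Other genes of the cell wall and of galactose transfer were set beside the members, from a list of 19 in the same additional file. Of these, 13 rose, 3 fell and 3 did not pass the test, against 8.03% of all genes higher and 5.61% lower. The median log2 ratio was 1.33, against 0.82 for the 6 members and -0.04 for all genes. The members' median lies midway between Contig17441 (1.65) and Contig8379 (-0.0013). It thus depends on counting Contig8379, whose description does not name a plant gene, as a member. The galactosyltransferase group includes an enzyme of galactolipid synthesis, so not every listed gene acts on the wall. Without that group 11 of 16 genes rose and 2 fell, with a median of 1.39. The study chose these genes partly on these arrays, so neither how many passed nor their direction is independent evidence. The shares over all genes are for that reason not a like background. Scaling and the F-test left 0 of the calls on the 19 genes, with 14 and 12 genes higher and 3 lower in each at an unadjusted p under 0.05. At that threshold 2699 and 1811 of all 11143 genes passed in either direction.

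Enzymes that remove single sugars, as beta-galactosidases do, were mostly higher in 10 dpa fiber. Of 4 such genes 3 rose and 0 fell. A glycosyl hydrolase of family 3 (Contig2867) had a log2 ratio of 2.09 ± 0.05 and an arabinosidase (Contig5203), which removes arabinose from side chains, one of 1.52 ± 0.03. A beta-D-xylosidase (Contig2047), which releases xylose, had a ratio of 1.23 ± 0.63. The cell wall beta-glucosidase of Contig13330, at 0.37 ± 0.53, did not pass (limma adjusted p = 0.380).

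All 3 genes of xyloglucan transferases, which cut and rejoin xyloglucan chains, rose. Contig2607 rose 5.77-fold, Contig12523 rose 5.06-fold and Contig6291 rose 2.40-fold. All 3 expansins, proteins that loosen the wall without hydrolysing it, rose as well, from 3.21-fold in Contig16061 to 5.08-fold in Contig835. Of the pectin enzymes, a pectate lyase (Contig4866) rose 2.29-fold, and the polygalacturonase-like Contig16638 had a log2 ratio of 0.32 ± 0.40 and did not pass.

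Glucanases moved both ways. A gene similar to a glucan endo-1,3-beta-glucosidase (HYP3_01-01-36R_H12_InvR_03May04_082.ab1) rose 3.66-fold, whereas a cellulase (TMIRS_221_F10.F) fell 5.53-fold and a glycosyl hydrolase of family 17 (Contig15796) fell 2.04-fold. The endo-1,4-beta-glucanase of TMIRS_172_H09.F, at a log2 ratio of 0.81 ± 0.58, did not pass (limma adjusted p = 0.0705).

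Galactosyltransferases work in the opposite sense and attach galactose. The alpha-6-galactosyltransferase Contig2765 rose 2.86-fold, with a log2 ratio of 1.52 ± 0.30 (limma adjusted p = 0.00274). Contig13991, described as the enzyme that makes a galactolipid of plastid membranes, rose 2.51-fold. Contig15502 fell 2.06-fold. Its description, a beta-1,3-galactosyl-O-glycosyl-glycoprotein gene, stands in this group by its wording and does not itself name a galactosyltransferase.

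**Figure D5:**
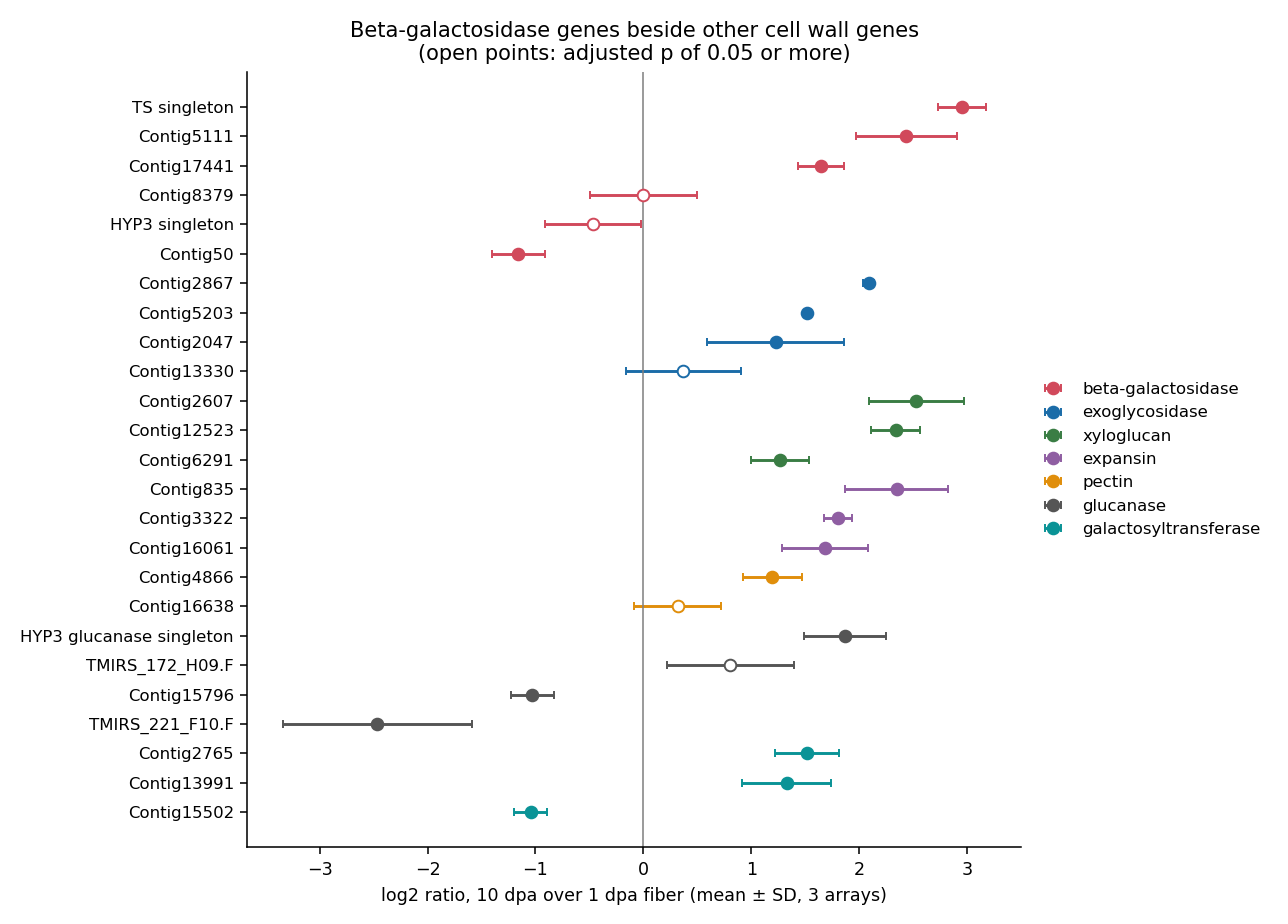
Log2 ratio of 10 dpa over 1 dpa fiber (horizontal axis, mean ± SD of 3 arrays) for the 6 beta-galactosidase genes and 19 other listed genes, coloured by role. The glucan endo-1,3-beta-glucosidase singleton is named HYP3 glucanase singleton, and points are open where the adjusted p was 0.05 or more. Xyloglucan transferases and expansins all lie above 1, and beta-galactosidases and glucanases lie on both sides of 0. In the galactosyltransferase group only Contig15502, whose description does not itself name a galactosyltransferase, lies below 0.

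Likeness to the changed members was measured as the Euclidean distance between the 3 array ratios, over 1014 described genes of the additional file. The study chose the genes of that file partly on these arrays. Nearest to Contig17441 were Contig18625, described after a bacterial orotidine phosphate decarboxylase (distance 0.07), and a chalcone synthase of flavonoid synthesis (Contig5884, 0.14). Nearest to Contig50 were a gene similar to a U3 small nucleolar protein (TMIRS_195_B05.F, 0.09) and a lectin-like receptor kinase (Contig3114, 0.12). Contig5111 and the TS singleton, which ranked 30 and 6 from the highest ratio among 11143 genes, had nearest genes at larger distances. A predicted gene product (Contig14824, 0.47) and a LIM transcription factor (Contig11492, 0.53) were nearest to Contig5111, and an expressed protein (Contig15722, 0.46) and a gamma tonoplast intrinsic protein (Contig6612, 0.53), an aquaporin of the vacuole, to the TS singleton.

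The 7 genes known from fiber that were checked each had at least 1 spot above background in both stages on all arrays. Of these 3 were higher in 10 dpa fiber, namely GhBM356393 (log2 ratio 2.65), GhRDL (0.82) and GhSCP (0.77). GhFDH was lower (log2 ratio -0.85, limma adjusted p = 0.0266), and 3 did not pass the test. Histone genes, which are expressed most in cells that replicate their DNA and were taken as markers of dividing ovule cells, were also checked. Fiber cells can express them too. Of 6 histone genes 3 were lower in 10 dpa fiber and 0 higher, the 6 log2 ratios ranged from -1.78 to -0.46, and their summed normalized signal ranged from 23743 to 34056 in 1 dpa fiber and from 9541 to 15341 in 10 dpa fiber, with none at background. The 3 that passed the test moved in the direction of Contig50 and opposite to the members that rose, and their part in these results was not tested.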

How the data were processed

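The members and gene lists were chosen with earlier results of these data known. The authors deposited scanner files of 2-colour arrays that hold, for either dye, a mean spot intensity and a mean background intensity around the spot, quantified per the labels with Agilent Feature Extraction software and neither background-subtracted nor dye-normalized. The authors' own table of log2 ratios has identifiers that match no probe and was not used. The arrays with ovule RNA were not analysed here, so the methods' analysis over both sets of arrays was not run.

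Background was corrected with normexp (offset 50) and dyes were balanced by loess on each array, giving no weight to 2256 control spots. Spots were averaged to probes and probes to genes, after 1 spot named only by its probe number was joined to its gene. Ratios were turned to 10 dpa over 1 dpa fiber, with the sign exchanged on replicate 2, and tested with lmFit and eBayes, with p-values adjusted over 11143 genes (limma 3.58.1, R 4.3.3). Stage signals came from the same values after Aquantile normalization between arrays. The background was the 95th percentile of 314 negative control spots in each dye and array. The number of arrays limits the precision. Genes named besides the 6 members were the list genes and, for each changed member, the 2 nearest described genes. Only the step with lmFit and eBayes was tried on simulated data, with gene ratios drawn independently for each array. Background correction, loess, probe averaging and shared RNA between arrays were not simulated. Plain background subtraction was added as an alternative after the data had been seen.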

Additional observations from a re-analysis of the deposited data

How the results depend on the processing

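Over 12 alternatives the TS singleton, Contig5111, Contig17441 and Contig50 kept their direction, and all 4 calls ended in 2 of them. With scaling between arrays the log2 ratios were 3.10, 2.48, 1.75 and -1.18, and with an F-test for each gene without moderation of the variance they were 2.95, 2.44, 1.65 and -1.16. In both, 0 members were past the adjusted p in either direction (5 and 4 at an unadjusted p under 0.05). Of the 19 other listed genes 0 were higher and 0 lower in both. At an unadjusted p under 0.05 these were 14 and 3 with scaling and 12 and 3 with the F-test. The cause was not tested. Without 1 replicate, the HYP3 singleton ranged from -0.71 to -0.29 and was past the adjusted p only without replicate 1, so the count of lower members ranged from 1 to 2. Contig8379 has no stable sign: it was 0.16 with median centring, 0.091 with a dye term, 0.0067 with plain background subtraction and from -0.19 to 0.28 without 1 replicate. Over all genes the counts of 895 higher and 625 lower became 512 and 191 after centring on the median, 547 and 402 with channels as single samples, 979 and 1212 without replicate 1, and 0 with scaling or the F-test (2699 and 1811 at an unadjusted p under 0.05). The reported test pairs the stages within each array, and treating the channels as single samples, without that pairing, ended none of the 4 calls. The smaller p-values of fits on 2 arrays or with a dye term are not added support.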

Other observations

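Replicates 1 and 2 carry the same code of 1 dpa RNA, labelled with different dyes. Between them the normalized log2 signal of 1 dpa fiber differed by 1.60 for Contig5111, by 0.91 for the TS singleton and by 0.66 for the HYP3 singleton, each higher on replicate 2, against a median absolute difference of 0.34 over all genes. For Contig17441 the difference was 0.11. Contig50 and Contig8379 were lower on replicate 2, with differences of -0.33 and -0.35 (replicate 2 minus replicate 1). Replicates 1 and 3 carry the same code of 10 dpa RNA in the same dye. There the 10 dpa signal differed by 0.16 for Contig5111 and by -0.11 for the TS singleton (replicate 3 minus replicate 1). The HYP3 singleton differed by -0.12, Contig17441 by -0.11, Contig50 by 0.32 and Contig8379 by -0.26. The median absolute difference over all genes was 0.27. The spread of the 1 dpa signals of Contig5111 is therefore wide even between arrays that share the coded RNA. The parts of the dye and of spots near background in it were not tested.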
